A study of Mus musculus with 6 samples.

Results

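The genes described here are 10 of 22180 measured on arrays: the ligand genes Wnt2, Wnt2b, Wnt4, Wnt5a and Wnt11, the R-spondin genes Rspo1, Rspo2 and Rspo3, and the receptor genes Lgr5 and Lgr6. They were chosen by symbol, and each was read from the probe set annotated to it alone, or from the brighter one where a gene had more than 1, which applied to Lgr5. Wnt proteins are lipid-modified signals that act over short distances through Frizzled receptors and their co-receptors. R-spondins are secreted proteins that bind Lgr receptors and keep the ubiquitin ligases Znrf3 and Rnf43 from clearing Frizzled, so that cells respond more strongly to a given amount of Wnt. In the lung, mesenchymal cells make many of the Wnts and R-spondins to which epithelial progenitors respond, and Lgr5 and Lgr6 mark subsets of mesenchymal cells themselves.

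Primary fibroblasts came from the lungs of adult mice of mixed strain with the genotype UBCCreERT/RSmoM2. These mice carry a tamoxifen-inducible Cre driven by the ubiquitin C promoter and, at the Rosa26 locus, a Cre-dependent allele of SmoM2, a constitutively active Smoothened. 3 wells were treated with vehicle and 3 with 4-hydroxytamoxifen (4OHT) at 1 µg/ml, and RNA was collected at 48 h; 4OHT is the form of tamoxifen that binds the Cre fusion protein. Both groups carried Cre and the SmoM2 allele, so 4OHT itself, Cre activity and SmoM2 cannot be told apart. The titles of all arrays begin with the same number, which the titles do not explain. The labels do not say that wells came from separate animals, so the p-values cover only the variation between wells, possibly technical.

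Within a group the arrays correlated at r of 0.997 to 0.998 over all genes, and between groups at 0.995 to 0.996, across genes that are not independent replicates. Gli1, the usual readout of hedgehog signalling, rose by 0.35 on the log2 scale (SE 0.064, limma adjusted p = 0.0167), which did not pass with vehicle replicate 1 (0.0538), 2 (0.0541) or 3 (0.0543) left out. Gli1 was dim, with a mean log2 expression of 6.46 in vehicle wells and 6.81 in 4OHT wells. None of 10 fibroblast markers, including Col1a1, Dcn and Pdgfra, was called, meaning a limma adjusted p under 0.05 over all genes (at an unadjusted p under 0.05, 1 was higher and 2 were lower), and their mean log2 expression per array lay between 12.46 and 12.55. Of 9 epithelial markers, 6 (Epcam, Sftpc, Sftpa1, Nkx2-1, Scgb1a1 and Foxj1) were no brighter than 95% of 1394 olfactory and vomeronasal receptor genes, whose mean log2 expression had a median of 4.16 and a 95th percentile of 6.47. The vehicle mean of Gli1 lay just below this percentile. All 10 Wnt, R-spondin and Lgr genes averaged above 6.47. So did the epithelial markers Ager (7.65), Cdh1 (7.18) and Sftpb (7.02), and Wnt4 (7.54) and Lgr5 (7.31) were dimmer than Ager. A mean above 6.47 therefore does not by itself show that a gene was expressed.

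The start regions of 4 of these genes are shown because they contrast genes that fell after 4OHT (Wnt2b, Lgr6 and Wnt11) with Wnt2, which did not pass the test. Each is 300 bases of RefSeq sequence from the GRCm38.p6 build, 250 before and 50 after an annotated start, written 5′ to 3′ on the strand of the gene, with any match to the TCF/LEF core in capitals. TCF and LEF are the DNA-binding partners of beta-catenin. Wnt2b lies on the minus strand at chr3:104961660-104961959, Wnt2 on the minus strand at chr6:18030396-18030695, Lgr6 on the minus strand at chr1:135105227-135105526 and Wnt11 on the plus strand at chr7:98834862-98835161.
Wnt2b: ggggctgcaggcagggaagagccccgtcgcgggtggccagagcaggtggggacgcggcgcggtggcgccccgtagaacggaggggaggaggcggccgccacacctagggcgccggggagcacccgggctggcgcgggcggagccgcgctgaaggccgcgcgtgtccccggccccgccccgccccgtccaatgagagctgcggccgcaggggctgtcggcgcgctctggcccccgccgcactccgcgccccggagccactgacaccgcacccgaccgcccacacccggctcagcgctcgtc
Wnt2: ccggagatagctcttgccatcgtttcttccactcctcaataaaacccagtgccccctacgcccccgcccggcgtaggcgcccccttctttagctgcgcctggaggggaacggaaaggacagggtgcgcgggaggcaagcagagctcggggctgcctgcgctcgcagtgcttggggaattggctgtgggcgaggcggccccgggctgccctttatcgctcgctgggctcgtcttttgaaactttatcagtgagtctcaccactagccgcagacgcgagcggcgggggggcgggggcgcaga
Lgr6: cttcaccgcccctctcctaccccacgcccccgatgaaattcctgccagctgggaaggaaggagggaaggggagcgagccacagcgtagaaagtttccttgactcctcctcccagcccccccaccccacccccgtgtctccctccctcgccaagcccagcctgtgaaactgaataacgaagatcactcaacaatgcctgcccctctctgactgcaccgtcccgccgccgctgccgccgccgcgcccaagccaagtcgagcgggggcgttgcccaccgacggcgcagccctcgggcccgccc
Wnt11: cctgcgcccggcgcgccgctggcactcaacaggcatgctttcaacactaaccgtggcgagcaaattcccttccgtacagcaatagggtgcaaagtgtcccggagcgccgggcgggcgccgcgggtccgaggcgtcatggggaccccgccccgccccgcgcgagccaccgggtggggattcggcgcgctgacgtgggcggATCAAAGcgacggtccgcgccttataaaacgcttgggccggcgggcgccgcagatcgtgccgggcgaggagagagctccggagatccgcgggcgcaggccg

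RefSeq windows were matched for 6 of the 10 genes (Wnt2, Wnt2b, Wnt4, Wnt11, Rspo1 and Lgr6), 7 windows in all since Wnt11 had 2 starts. They were GC-rich, from 59.3% in the other Wnt11 window to 79.7% in Wnt2b and 84.3% in Wnt4, against a median of 52.7% over 32851 windows of the same length. The TCF/LEF core was searched as CTTTGAT or CTTTGAA on both strands, and was found in 1 of the 7 windows, that of Wnt11 printed above, where CTTTGAT reads on the opposite strand 51 bases before the start. It was found in 8.65% of all windows. The GLI consensus TGGGTGGTC, the site of the hedgehog transcription factors, was in none of the 7 and in 0.253% of all windows. These are matches of letters and say nothing about binding.

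In 4OHT wells, 6 of the 10 genes were lower and none was higher (limma, adjusted p under 0.05 over all genes; at an unadjusted p under 0.05 also 6 and 0). Among all genes, 6.62% were called lower and 5.38% higher, 12.0% in all. These shares are not matched for brightness: the 10 genes averaged 9.52 to 9.53 per vehicle array, against vehicle array medians of 7.45 to 7.47. The genes that fell were Wnt2b and Wnt11 among the ligands, Rspo1 and Rspo2 among the R-spondins, and both receptors, Lgr5 and Lgr6. Wnt2b, Rspo2, Lgr5 and Lgr6 each fell by 0.91 to 0.98 on the log2 scale, close to 2-fold, while Rspo1 fell 1.31-fold and Wnt11 1.18-fold. The median log2 fold change was -0.31 over the 10 genes and -0.0051 over all genes. In 7 of the 10 the 4OHT arrays all lay below the vehicle arrays, as they did in 17.8% of all genes. In none did they all lie above, as they did in 15.0% of all genes. The values here are RMA log2 expression, which compresses the changes of dim probe sets. In bulk RNA, fewer cells of a type and less RNA per cell cannot be told apart.

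**Figure D1:**
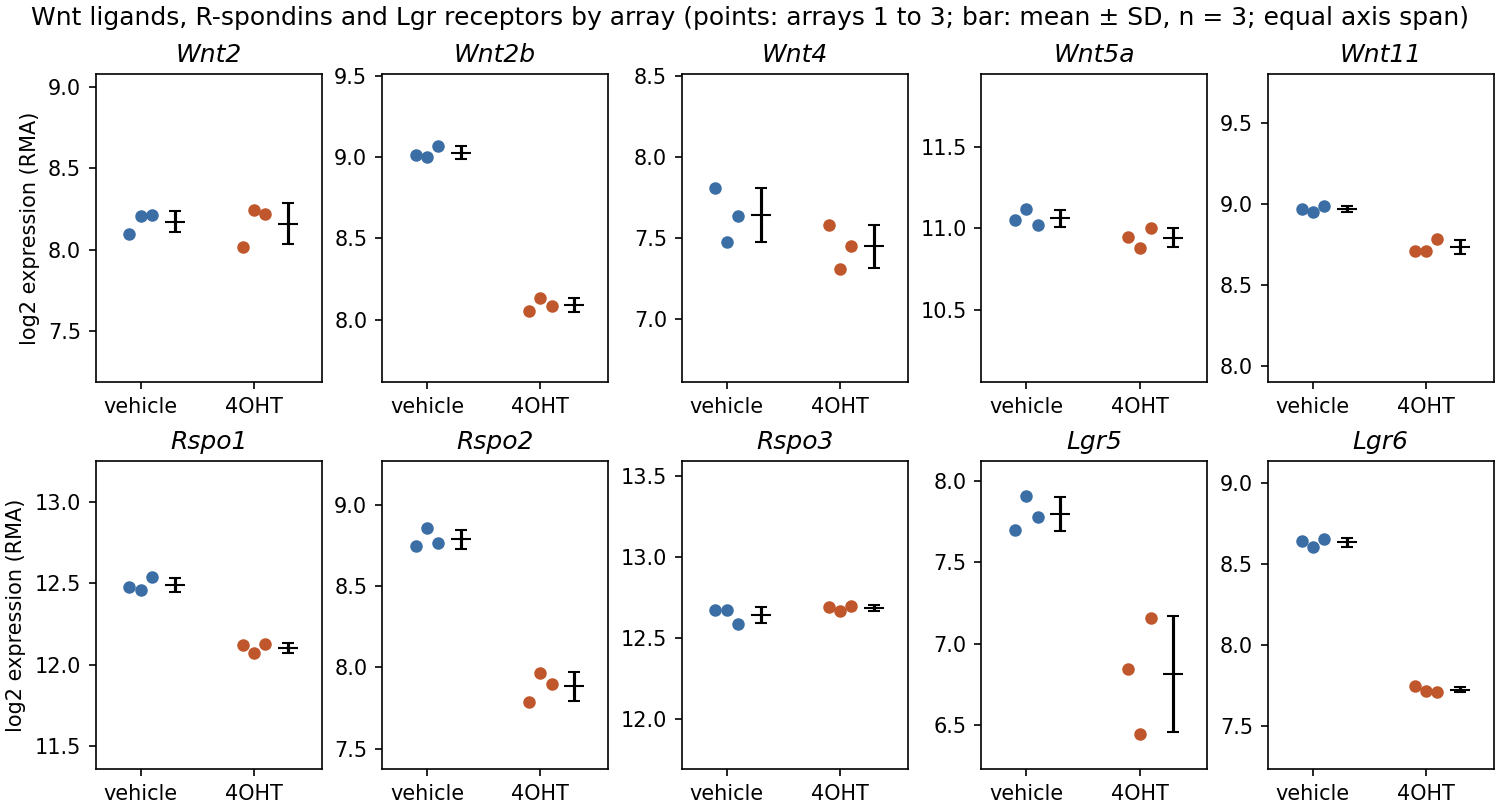
Log2 expression of the 10 genes on each array (points, 3 vehicle in blue and 3 4OHT in orange; bars are mean ± SD, n = 3), with the same axis span of 1.9 log2 units in every panel. Wnt2b, Rspo2 and Lgr6 form 2 tight, well separated groups, the 4OHT arrays of Lgr5 are spread over 0.72, and Wnt2 and Rspo3 overlap between groups.

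Among the ligands, Wnt2b, which with Wnt2 specifies the lung field in the embryonic foregut, changed most. The vehicle wells read 9.02, 9.00 and 9.07 on the log2 scale and the 4OHT wells 8.05, 8.14 and 8.08. The groups were 0.86 apart at their nearest arrays, against ranges of 0.073 and 0.082 within them. Wnt2b fell by 0.94 on the log2 scale, or 1.92-fold (SE 0.046, limma adjusted p = 0.000188).

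Wnt2, its close relative, read 8.10, 8.21 and 8.21 in vehicle wells and 8.02, 8.25 and 8.22 in 4OHT wells. The groups overlapped, with the lowest and the highest array both in the 4OHT group. The log2 fold change was -0.01 (95% interval -0.19 to 0.16, limma adjusted p = 0.942), and its sign changed with the scaling. Within each array, Wnt2b minus Wnt2 averaged 0.86 ± 0.06 with vehicle and -0.07 ± 0.09 with 4OHT (SD, n = 3). That difference of -0.93 between the changes of the 2 genes had an exact two-sided permutation p of 0.1, the smallest that 3 arrays against 3 allow. 4 such pairs of genes were compared, chosen after their values were seen, and the Benjamini-Hochberg adjusted p was 0.133.

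Wnt11, a ligand of the beta-catenin-independent branch that steers cell polarity and movement, showed a small fall. The vehicle wells read 8.97, 8.96 and 8.99 and the 4OHT wells 8.71, 8.71 and 8.78. The groups did not overlap, with a gap of 0.17. The fall was 0.24 on the log2 scale (SE 0.044, limma adjusted p = 0.0177). The call rested on nearly the full set of arrays: it was lost without vehicle replicate 1 (adjusted p = 0.0595), 2 (0.0598) or 3 (0.0522) and without 4OHT replicate 1 (0.0650) or 2 (0.0760).

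Wnt5a, which signals through Ror receptors and shapes the developing airways and alveoli, read 11.05, 11.12 and 11.02 in vehicle wells and 10.95, 10.88 and 11.00 in 4OHT wells. All 4OHT arrays lay below all vehicle arrays, but by only 0.018. Its log2 fold change of -0.12 did not pass (95% interval -0.25 to 0.0047, limma adjusted p = 0.204). Wnt4, which can act through either branch, read 7.81, 7.47 and 7.64 in vehicle wells and 7.58, 7.31 and 7.45 in 4OHT wells. Its arrays were the most spread of the 5 ligands in both groups, and the groups overlapped. The log2 fold change was -0.19 (95% interval -0.44 to 0.05, limma adjusted p = 0.298).

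The 3 R-spondins differed in their values. Rspo2, which is needed for limb and lung development, read 8.75, 8.86 and 8.77 in vehicle wells and 7.79, 7.96 and 7.90 in 4OHT wells. The gap between the groups was 0.79, against ranges of 0.11 and 0.17 within them. Rspo2 fell by 0.91 on the log2 scale, or 1.88-fold (SE 0.061, limma adjusted p = 0.000465).

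Rspo1, a potent amplifier of Wnt signalling, read 12.48, 12.46 and 12.54 in vehicle wells and 12.12, 12.07 and 12.12 in 4OHT wells. The groups lay 0.33 apart. Rspo1 fell by 0.39 on the log2 scale (SE 0.045, limma adjusted p = 0.00318). Rspo3, which supports vessel development and stem cells of several epithelia, read 12.67, 12.68 and 12.59 in vehicle wells and 12.69, 12.67 and 12.70 in 4OHT wells. The groups overlapped, and the log2 fold change was 0.04 (95% interval -0.07 to 0.15, limma adjusted p = 0.630).

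Within arrays, Rspo2 minus Rspo3 shifted by -0.95 (SE 0.068) from vehicle to 4OHT, and Rspo2 minus Rspo1 by -0.52 (SE 0.083). Each had an exact two-sided permutation p of 0.1, the smallest possible here (Benjamini-Hochberg adjusted p = 0.133 over the 4 pairs). Both shifts were larger than the spread between wells, but these pairs, too, were chosen after their values were seen. Their size is therefore not independent support, and with 3 arrays a group this test cannot reach 0.05.

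**Figure D2:**
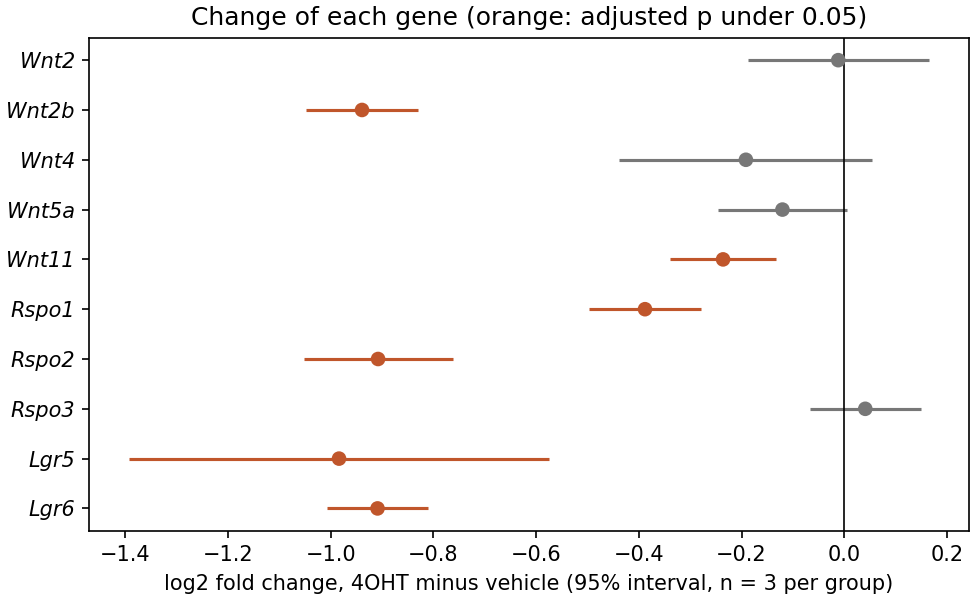
Log2 fold change of each gene, 4OHT minus vehicle, with its 95% interval from limma (n = 3 per group; orange, adjusted p under 0.05; grey, not called). Wnt2b, Rspo2, Lgr5 and Lgr6 lie between -0.98 and -0.91, and Lgr5 has the widest interval, from -1.39 to -0.58.

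Both receptors fell. Lgr6, an R-spondin receptor found in mesenchyme around the airways, read 8.64, 8.60 and 8.66 in vehicle wells and 7.74, 7.72 and 7.71 in 4OHT wells. The groups ranged over 0.052 and 0.032, and the gap between them was 0.86. Lgr6 fell by 0.91 on the log2 scale, or 1.88-fold (SE 0.041, limma adjusted p = 0.000188).

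Lgr5, an R-spondin receptor best known from intestinal stem cells and found in alveolar mesenchyme, read 7.70, 7.91 and 7.78 in vehicle wells and 6.84, 6.44 and 7.16 in 4OHT wells. The groups did not overlap, but the 4OHT wells ranged over 0.72, and 4OHT replicate 2 lay below the 95th percentile of the olfactory and vomeronasal receptor genes. Lgr5 fell by 0.98 on the log2 scale (SE 0.17, limma adjusted p = 0.0142). The call was lost without vehicle replicate 2 (adjusted p = 0.0565) or 4OHT replicate 1 (0.0515). The change of Lgr5 minus that of Lgr6 was -0.07 (SE 0.22, exact two-sided permutation p = 0.8, adjusted p = 0.8 over the 4 pairs), an error too wide to show that they fell alike.

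A dimmer probe set of Lgr5 read 6.29, 6.37 and 6.71 in vehicle wells and 6.26, 6.26 and 6.42 in 4OHT wells. Its mean of 6.38 lay below the 95th percentile of the olfactory and vomeronasal receptor genes, its groups overlapped, and its log2 fold change of -0.14 did not pass (limma adjusted p = 0.502 over all probe sets). With both probe sets averaged, Lgr5 fell by 0.56 (limma adjusted p = 0.0277).

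**Figure D3:**
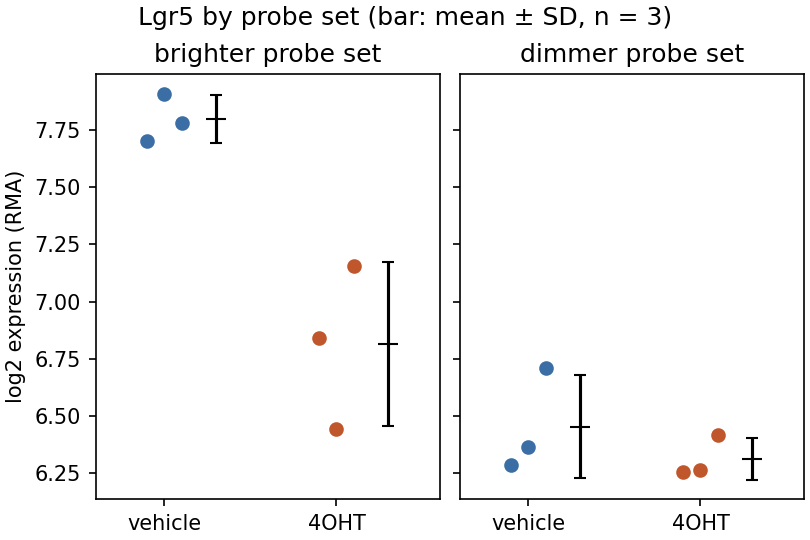
Log2 expression of Lgr5 on the 3 vehicle (blue) and 3 4OHT (orange) arrays for its 2 probe sets (bars are mean ± SD, n = 3). The brighter set separates the groups, from a mean of 7.80 to 6.81, and the dimmer set, with a mean of 6.38 over all arrays, does not.

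Other genes of the pathway were read from lists of ligands, R-spondin axis genes, secretion genes, receptors, co-receptors, intracellular components and targets. Outside the 10 genes, 90 were measured, of which 17 (18.9%) were lower and 4 (4.44%) higher, with a median log2 fold change of -0.05. Among all genes 6.62% were lower and 5.38% higher, the shares to set beside each list count below. With only genes above the median level tested, 2134 were lower and 1750 higher, against 1469 and 1193 of all genes. More genes were called there although fewer were tested, so the share called depends on which genes are tested. All the pathway lists but the other Wnt ligands averaged at least 8.23 per vehicle array, against vehicle array medians of 7.45 to 7.47. The 18.9% is therefore not matched for brightness with the 6.62%, and the distance between them cannot be read as particular to the pathway. Among the other 14 Wnt ligands, 1 was higher and none lower (limma; at an unadjusted p under 0.05, 2 higher and 1 lower). It was Wnt9a, which rose by 0.37 on the log2 scale (SE 0.052, limma adjusted p = 0.00614), from 9.38, 9.51 and 9.44 to 9.80, 9.78 and 9.87. Wnt6 had a log2 fold change of -0.27 that did not pass (limma adjusted p = 0.0701).

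None of the other 4 R-spondin axis genes was called by limma (at an unadjusted p under 0.05, 1 higher and 0 lower). Lgr4, the most widely expressed of the Lgr receptors, had a log2 fold change of 0.15 (limma adjusted p = 0.0814), and was called higher when only genes above the median level were tested (0.0171) or with a trended, robust estimate of the spread (0.0269). Rnf43 had a log2 fold change of 0.13 (limma adjusted p = 0.197), Znrf3 of 0.03 and Rspo4 of -0.02. The R-spondin receptors were thus read as lower for Lgr5 and Lgr6 and not called for Lgr4.

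Of 10 Frizzled receptors, 4 were lower and none higher (limma; at an unadjusted p under 0.05, 5 and 0). Fzd8 fell by 0.84 on the log2 scale (limma adjusted p = 0.000366) and Fzd5 by 0.76 (0.00173), both receptors of beta-catenin-dependent Wnts. Fzd9 and Fzd1 fell by 0.43 and 0.25. Fzd9 averaged 7.50 over all arrays, dimmer than the epithelial marker Ager (7.65). Fzd9 did not pass with vehicle replicate 1 or 3 or 4OHT replicate 1 or 3 left out (limma adjusted p from 0.0513 to 0.0650). Fzd1 did not pass with any 1 array other than 4OHT replicate 3 left out (0.0554 to 0.0784). Where both were lost, without vehicle replicate 1 or 3 or 4OHT replicate 1, 2 Frizzled genes were lower. Of 9 co-receptors, 4 were lower and none higher (at an unadjusted p under 0.05, 6 and 0). Musk, a receptor kinase with a Frizzled-like domain known from the neuromuscular junction, fell by 0.74 (limma adjusted p = 0.000785). Ror1 and Ror2, receptors of Wnt5a, fell by 0.33 and 0.26, and Lrp5, which pairs with Frizzled in the beta-catenin branch, by 0.22. The co-receptor count was 2 without vehicle replicate 1 or 3 or any of the 3 4OHT arrays, since Lrp5 did not pass with any 1 of the 6 arrays left out (adjusted p from 0.0745 to 0.117) and Ror2 with any 1 other than vehicle replicate 2 (0.0504 to 0.112).

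Of 11 genes for the lipid modification, export and release of Wnts, 4 were lower and 1 higher by limma. The heparan sulfate proteoglycan genes Gpc6, Sdc4, Gpc4 and Sdc1, whose products hold Wnts at the cell surface, fell by 0.31 to 0.41 on the log2 scale. Sdc1 did not pass with 4OHT replicate 2 left out (limma adjusted p = 0.0534) or with its probe sets averaged (0.0606). Vps35, a retromer subunit that recycles the Wnt carrier Wls, rose by 0.32 (limma adjusted p = 0.0118), and Wls itself had a log2 fold change of -0.01 (limma adjusted p = 0.914). Both were named after their values were seen.

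Of 18 Wnt target and feedback genes, 3 were lower and 1 higher by limma, with a median log2 fold change of -0.03. Nkd1, a feedback inhibitor that binds Dishevelled, fell by 0.66 on the log2 scale (SE 0.041, limma adjusted p = 0.000390), while its relative Nkd2 rose by 0.40 (SE 0.057, limma adjusted p = 0.00678). Apcdd1, a membrane-bound Wnt inhibitor, fell by 0.39, and Ccn4, a matricellular target, by 0.16. Ccn4 did not pass with any 1 of the 6 arrays left out (limma adjusted p from 0.0814 to 0.157). With vehicle replicate 1 left out, or 4OHT replicate 1 or 2, 1 target was lower. Axin2, the most used readout of beta-catenin signalling and named here after its value was seen, had a log2 fold change of -0.20 that did not pass (95% interval -0.33 to -0.06, limma adjusted p = 0.0736). With its probe sets averaged, the log2 fold change of Axin2 was -0.02 (limma adjusted p = 0.817). Its brightest probe set averaged 7.30 over all arrays, dimmer than the epithelial marker Ager (7.65). Earlier results of the same arrays were known when the lists were written, so these counts are not independent support.

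**Figure D4:**
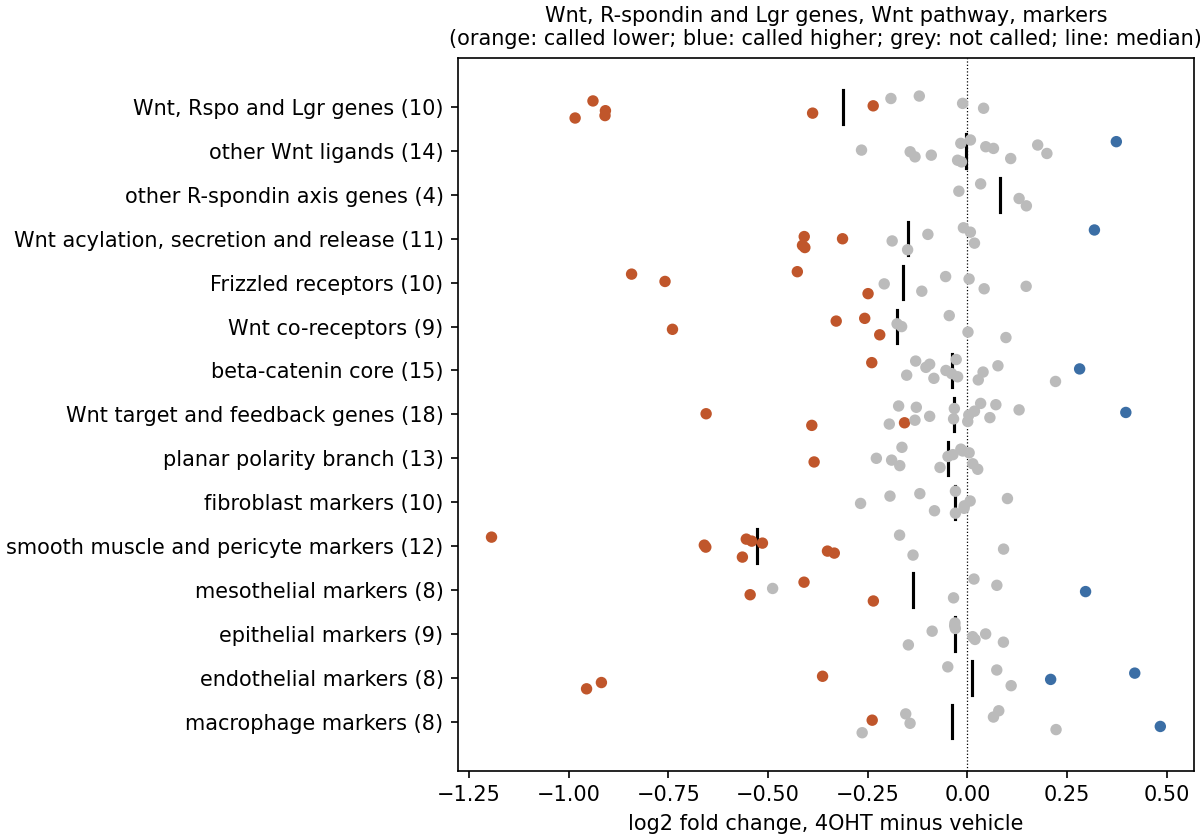
Log2 fold change, 4OHT minus vehicle, of each gene of the Wnt, R-spondin and Lgr set, of 8 other Wnt pathway lists and of 6 lists of cell type markers (number measured in brackets; orange, called lower; blue, called higher; grey, not called; black line, list median). The medians are -0.31 for the 10 genes and -0.53 for the smooth muscle and pericyte markers, and lie between -0.18 and 0.08 for the other lists.

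Markers of smooth muscle cells and pericytes were read beside these genes. Of 12 smooth muscle and pericyte markers, 9 were lower and none higher (limma; at an unadjusted p under 0.05, 11 and 0), with a median log2 fold change of -0.53. Rgs5, a pericyte marker, fell by 1.19 on the log2 scale and Notch3 by 0.55, and the smooth muscle genes Lmod1 and Myh11 fell by 0.66 and 0.54. Acta2, Tagln and Des were not called, with log2 fold changes of -0.14, -0.17 and 0.09 (limma adjusted p = 0.0774, 0.0756 and 0.258). All 4OHT arrays of Des lay above its vehicle arrays. The summed linear signal of the 12 ranged from 72808 to 74131 with vehicle and from 59308 to 62182 with 4OHT. The part of these cells in the fall of Lgr6, Rspo2 and the other genes was not tested.

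Mesothelial cells line the lung surface. Of 8 mesothelial markers, 3 were lower and 1 higher by limma. Lrrn4, Upk3b and Bnc1 fell by 0.54, 0.41 and 0.24 on the log2 scale, while Msln rose by 0.30. Upk1b, Wt1, Krt19 and Muc16 were not called, with log2 fold changes of 0.07, 0.02, -0.03 and -0.49 (limma adjusted p = 0.295, 0.848, 0.778 and 0.0610). All 4OHT arrays of Upk1b lay above its vehicle arrays, and those of Muc16 below. Bnc1 did not pass with vehicle replicate 1 (limma adjusted p = 0.0661) or 2 (0.0544) or 4OHT replicate 2 (0.0741) left out. The Msln call did not survive leaving out 4OHT replicate 1 (limma adjusted p = 0.0525) or 2 (0.0593). Their summed linear signal ranged from 32247 to 32403 with vehicle and from 29874 to 30871 with 4OHT. All 8 averaged above the 95th percentile of the olfactory and vomeronasal receptor genes (6.47), and Upk3b averaged 13.10 in vehicle wells. Muc16 averaged only 6.56, and its mean of 6.32 in 4OHT wells lay below that percentile. The part of mesothelial cells in the fall of Wnt2b or Rspo1 was not tested.

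Of 8 endothelial markers, 3 were lower (Cdh5, Emcn and Pecam1, by 0.95, 0.92 and 0.36) and 2 higher (Tek by 0.42 and Kdr by 0.21) by limma, and 5 of the 8 (Tek, Emcn, Tie1, Cldn5 and Vwf) were no brighter than 95% of the olfactory and vomeronasal receptor genes. Their summed linear signal ranged from 970 to 1054 with vehicle and from 846 to 860 with 4OHT. With 4OHT replicate 2 left out 1 was lower, Emcn also did not pass with vehicle replicate 3 left out (limma adjusted p = 0.0529) nor Pecam1 with 4OHT replicate 1 left out (0.0655), and Kdr did not pass with any 1 of the 6 arrays left out. Of 8 macrophage markers, Cd68, also a lysosomal protein, rose by 0.48 and Lyz2 fell by 0.24, with a summed linear signal of 2201 to 2283 with vehicle and 2173 to 2284 with 4OHT. The Lyz2 call was lost without vehicle replicate 2 (adjusted p = 0.121) or 3 (0.0962) and without 4OHT replicate 1 (0.0772), 2 (0.129) or 3 (0.0791). Ptprc, a general marker of white blood cells, averaged below the 95th percentile of the olfactory and vomeronasal receptor genes. No epithelial marker was called (limma; at an unadjusted p under 0.05, 0 higher and 1 lower), and their summed linear signal ranged from 829 to 835 with vehicle and from 782 to 843 with 4OHT. The part of these cell types was not tested.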

How the data were processed

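Total RNA from cultured lung fibroblasts was measured on 6 single-colour arrays, 3 per group, grouped by sample title. The deposited table holds log2 expression per probe set. Per the submitters' processing notes, RMA, oligo and limma were used (versions are not listed). RMA corrects background, quantile-normalizes arrays and summarizes probes, so a shift of all genes in 1 direction would be removed. For the arrays' genome build, the sources used here state nothing.

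Of 41345 probe sets, the 23521 with 1 gene symbol gave 22180 genes, each read from its brightest probe set. The comparison used limma 3.58.1 under R 4.3.3 (lmFit, eBayes, two-sided), with Benjamini-Hochberg adjustment over all genes and a threshold of 0.05. Log2 fold changes are 4OHT minus vehicle. The number of arrays limits precision.

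The text names the 10 genes, up to 4 called genes of smallest p from each pathway or marker list (2 of smallest p where no gene of a pathway list was called), and others said to be chosen after their values were seen, beside Gli1 and markers or list genes named to complete a count. The genes and lists were chosen with earlier results of these data known. Alternatives tried were a replicate block, 2 other scalings, a filter on dim genes, averaged probe sets, all probe sets, a trended robust spread, array weights, a threshold of 0.01 and leaving out each array. Protein sequences were not used here.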

Additional observations from a re-analysis of the deposited data

How the results depend on the processing

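The number of the 10 genes called lower was 6, between 4 and 6 when any 1 array was left out, 4 at a threshold of 0.01 and 5 with the replicate number as a block or with only genes above the median level, which left out Lgr5. None of the 10 was called higher under any of these alternatives. Wnt2b, Rspo1, Rspo2 and Lgr6 were called lower under every one of 15 alternatives, with adjusted p of at most 0.0200. The alternatives reuse the same arrays and are not independent checks. Several, such as the block and the threshold of 0.01, leave the log2 fold change of these genes unchanged. Over all genes, 2662 were called. That count was 1568 with the replicate number as a block, 4123 with a trended and robust spread, 1010 at a threshold of 0.01 and between 1220 and 2326 with 1 array left out. The deviations of same-numbered arrays of the 2 groups correlated at 0.062, -0.024 and 0.043 over genes. For differently numbered arrays the correlations ran from -0.076 to 0.031. With 3 arrays a group, these values cannot tell whether the numbers mark paired wells. With that block, Wnt11 had an adjusted p of 0.0565, and 2 Frizzled and 2 co-receptor genes were lower. Of 757 values of the 51 named genes under the alternatives, 642 kept their direction and side of the threshold or changed sign without a call on either side, 113 lost the call, 2 gained it and 0 reversed. At the threshold of 0.01, 2 Frizzled, 2 co-receptor and 1 target gene were lower. Single calls of other lists moved most with a trended and robust spread, where 4 genes of the beta-catenin core, 3 of the planar polarity branch and 3 fibroblast markers were lower, against 1, 1 and 0, and with only genes above the median level, where 3 of the beta-catenin core and 2 fibroblast markers were lower. With the block, no gene of the beta-catenin core was called and no mesothelial or endothelial marker was higher. Detection calls were not used, so brightness limits what can be said of Lgr5 and Wnt4. In 4OHT wells, Lgr6 (7.72) and Rspo2 (7.88) also averaged near the epithelial marker Ager (7.65 over all arrays).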

Other observations

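Of 15 measured genes of the beta-catenin core, 1 was called higher and 1 lower by limma (at an unadjusted p under 0.05, 2 higher and 3 lower), near the 12.0% of all genes called in either direction. Dvl2, a Dishevelled scaffold, was higher (limma log2 fold change 0.28, adjusted p = 0.0149) and Pygo2, a nuclear cofactor of beta-catenin, lower (log2 fold change -0.24, adjusted p = 0.0412), and the list's median log2 fold change was -0.04. Dvl2 did not pass with vehicle replicate 1 (limma adjusted p = 0.0503) or 2 (0.0622) left out, or 4OHT replicate 2 (0.0611). Pygo2 did not pass with vehicle replicate 1 (0.0853), 2 (0.131) or 3 (0.0818) left out, or with 4OHT replicate 1 (0.113) or 2 (0.128) left out, or after centring the arrays (0.0601) or a further quantile normalization (0.0627).

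Of 13 genes of the planar polarity branch, 1 was lower and none higher by limma (at an unadjusted p under 0.05, 5 lower and 0 higher). It was Daam2, a formin that acts downstream of Dishevelled, at 7.10, 7.05 and 7.18 in vehicle wells and 6.69, 6.78 and 6.71 in 4OHT wells. It fell by 0.38 on the log2 scale (limma adjusted p = 0.00602). Daam2 averaged 6.92 over all arrays, dimmer than the epithelial markers Ager (7.65), Cdh1 (7.18) and Sftpb (7.02). Without vehicle replicate 3, 2 genes of the planar polarity branch were lower.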
